A study of Mus musculus with 12 samples.

Results

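The interferon-stimulated genes Ifit1, Ifit3, Ifi27, Irf7, Isg15, Bst2, Oasl2, Ifitm3 and Usp18 were followed in the medial prefrontal cortex of 2 inbred mouse strains with and without chronic stress. They were taken by name, and the values on all rows that carry a gene's name were added, which gave 9 of the 55678 gene names in the table. The study crossed strain, C57BL/6JmsSlc (B6) or BALB/cCrSlc (BALB/c), with treatment. Chronic restraint stress (CRS) meant 6 h in a polyethylene restrainer in the home cage on each of 21 days, and control mice were handled without restraint. Each of the 4 groups, B6 control, B6 CRS, BALB/c control and BALB/c CRS, held 3 libraries, named here by the number in their titles. All mice were 9 to 10 weeks old, had been through behavioural testing, and were sampled by a 1.5 mm punch. The labels give neither sex nor litter, and nothing beyond the numbers in the titles says how the samples of a group were obtained, so the p-values measure the spread between these samples.

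Type I interferons are secreted proteins that bind a receptor made of Ifnar1 and Ifnar2. Its signal passes through Stat2 and Irf9 to a DNA element, the interferon-stimulated response element, in the promoters of target genes. In brain without infection these targets are transcribed at a low tonic level, in microglia, endothelium and other cells, and the level at rest is often called interferon tone.

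The promoters of the genes that separated the strains, or whose element is a textbook example, are printed first. All 9 genes were chosen as known interferon-stimulated genes. Matches to the response element in them are therefore a description and no test of what the genes share. The promoter windows, from 250 bases before to 50 bases after the annotated start, come from RefSeq on GRCm38.p6, a C57BL/6J assembly. Sequence of BALB/c was not analysed here. An entry was found for 7 of the 9 genes; Ifi27 and Usp18 had none. The core searched was GAAA, any 2 bases, and GAAA again, on both strands (TTTC, any 2 bases, TTTC when read on the opposite strand), and overlapping matches were counted separately. Capitals mark the matches in the 250 bases before the start of Ifit3 (chr19:34583279-34583528, plus strand), its neighbour Ifit3b (chr19:34607707-34607956, plus strand), Ifit1 (chr19:34640639-34640888, plus strand), Isg15 (chr4:156200819-156201068, minus strand) and Bst2 (chr8:71537473-71537722, minus strand), each written 5′ to 3′ in the direction of transcription.
Ifit3: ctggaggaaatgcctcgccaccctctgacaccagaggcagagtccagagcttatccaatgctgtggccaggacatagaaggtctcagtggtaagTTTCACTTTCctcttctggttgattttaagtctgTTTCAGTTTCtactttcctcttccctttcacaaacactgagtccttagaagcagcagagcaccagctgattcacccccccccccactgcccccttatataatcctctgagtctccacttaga
Ifit3b: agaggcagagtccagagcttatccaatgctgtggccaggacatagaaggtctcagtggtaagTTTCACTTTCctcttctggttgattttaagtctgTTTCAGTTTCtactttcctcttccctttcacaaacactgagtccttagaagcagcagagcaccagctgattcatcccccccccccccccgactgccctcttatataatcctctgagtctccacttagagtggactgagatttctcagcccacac
Ifit1: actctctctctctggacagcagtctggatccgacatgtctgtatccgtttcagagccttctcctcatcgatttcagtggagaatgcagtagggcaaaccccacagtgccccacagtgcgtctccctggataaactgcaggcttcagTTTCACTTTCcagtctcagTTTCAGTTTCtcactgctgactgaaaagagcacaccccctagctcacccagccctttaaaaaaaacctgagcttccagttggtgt
Isg15: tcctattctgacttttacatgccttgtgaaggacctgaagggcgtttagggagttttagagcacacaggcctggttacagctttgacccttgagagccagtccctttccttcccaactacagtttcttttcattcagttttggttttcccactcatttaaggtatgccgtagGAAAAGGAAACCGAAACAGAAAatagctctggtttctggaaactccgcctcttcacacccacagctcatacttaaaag
Bst2: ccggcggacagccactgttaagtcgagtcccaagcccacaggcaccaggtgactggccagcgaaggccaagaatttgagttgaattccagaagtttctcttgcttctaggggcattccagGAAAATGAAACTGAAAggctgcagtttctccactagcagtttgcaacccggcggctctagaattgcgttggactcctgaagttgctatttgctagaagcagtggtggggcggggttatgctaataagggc

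Ifit1 and Ifit3 each held 2 separate matches on the opposite strand, beginning at positions -104 and -85 in Ifit1 and at -156 and -122 in Ifit3, counted from the annotated start. Isg15 held 3 overlapping matches at -78, -72 and -66, and Bst2 held 2 overlapping matches at -130 and -124. Ifitm3 held 2 matches just after its start, in the part of its window not printed. The windows of Irf7 and Oasl2 held none, which says only that these letters are not in those 300 bases. At least 1 match was thus found in 5 of 7 windows (71.4%), against 3.44% of 32851 RefSeq promoter windows of the same length. Among the other type I interferon-stimulated genes listed, 28 of 72 windows (38.9%) held a match. The windows of Ifit3 and Ifit3b were 94.5% identical over 274 aligned bases and held the same 2 matched strings.

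Levels are given as TPM, transcript abundances that are corrected for transcript length and scaled to the same total in every library; the number of reads behind a value is therefore unknown. Mitochondrial transcripts took 17.3% to 23.9% of TPM. The library BALB/c CRS 12 stood apart with 3.97% of TPM from an 18S ribosomal RNA gene, against 0.0307% to 0.169% in the other libraries, and a blood and leukocyte signal was highest in B6 control 2, at 111 TPM over 5 blood markers and 24.0 TPM over 10 leukocyte markers. The calls of Ifit3, Bst2, Ifitm3 and Ifi27 are given with and without these libraries. Those of Ifit1, listed genes and markers are given with all 12 libraries only. Differences were tested with limma on log2(TPM + 1) over the 16423 genes that reached 1 TPM in 3 or more libraries, and calls were made where the p adjusted by Benjamini-Hochberg was under 0.05. Of the 9 genes, 7 passed this filter; Ifit1 and Usp18 reached 1 TPM in 1 library each. Irf7 reached 1 TPM in 4 B6 libraries and 1 BALB/c library and Oasl2 in 5 and 2, so both passed only with their B6 libraries. Counts over the 7 tested genes describe those genes only, and for Irf7 and Oasl2 a lower level in BALB/c was partly fixed by the filter. Ifit3, Ifi27, Isg15, Bst2 and Ifitm3 reached 1 TPM in at least 3 libraries of each strain.

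Over all 12 libraries the genes spanned a wide range of levels on the TPM scale. Ifi27 had the highest mean level, 44.1 TPM, followed by Ifitm3 at 19.5 TPM. Bst2 averaged 4.04 TPM and Ifit3 3.82 TPM. Isg15, Oasl2 and Irf7 averaged 1.44, 1.20 and 1.01 TPM, and Ifit1 and Usp18 0.628 and 0.512 TPM. Most of the set was thus near the level at which genes entered the test.

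**Figure D1:**
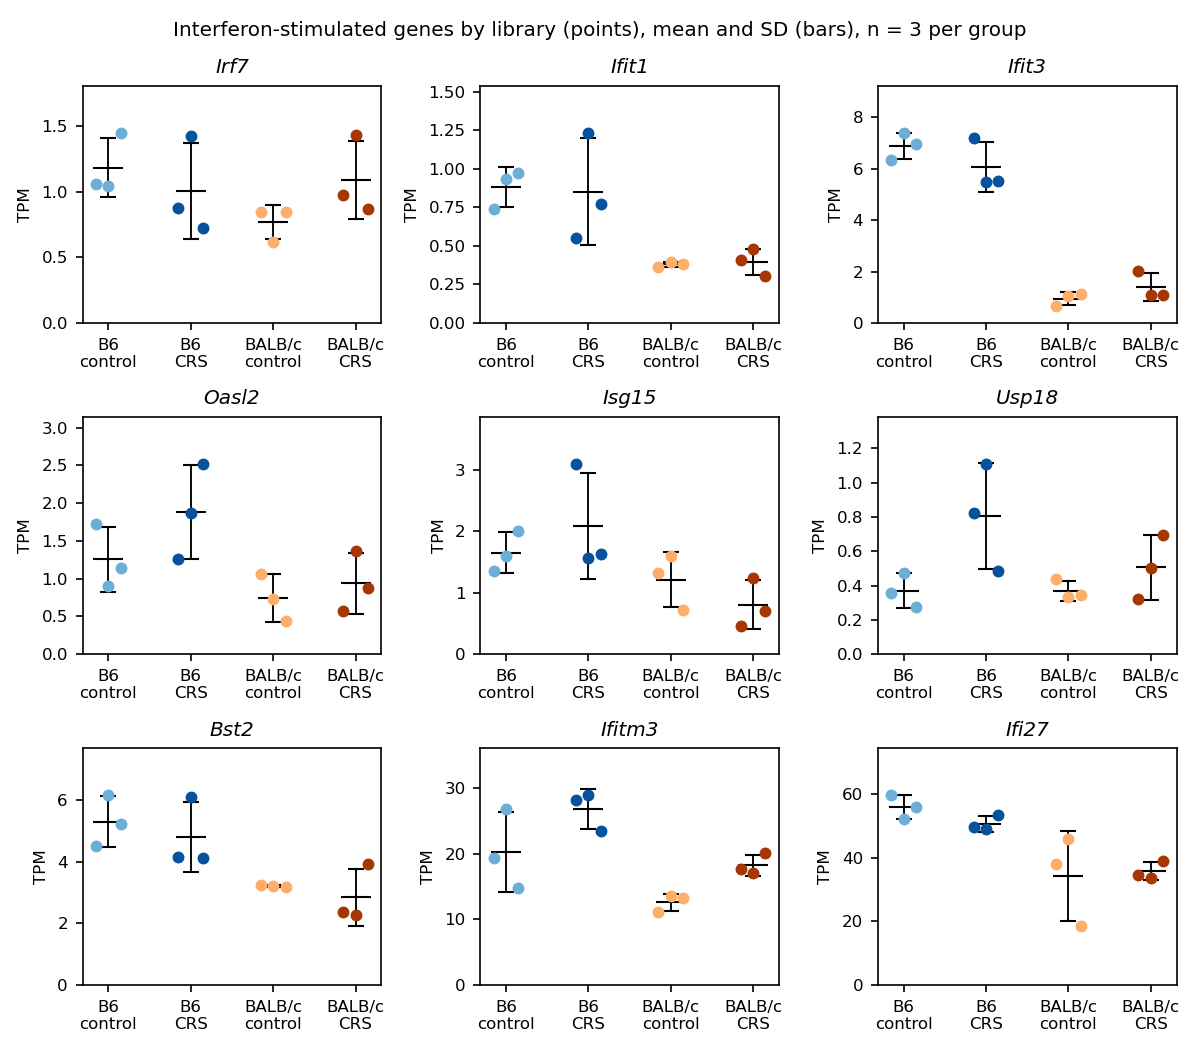
TPM of each of the 9 genes on a linear axis from 0, 1 point per library, with the mean and SD of each group of 3 libraries. The B6 and BALB/c points are fully apart for Ifit1, Ifit3, Bst2 and Ifi27, and the widest gap is that of Ifit3, whose B6 libraries start at 5.49 TPM while BALB/c libraries end at 2.02 TPM.

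Ifit3 differed most between the strains. It belongs to the interferon-induced proteins with tetratricopeptide repeats, which bind viral RNA and the complexes that translate it, and lies at chr19:34583531-34588731 on the plus strand (GRCm38, GENCODE M21). Ifit3 stood at 6.33, 7.36 and 6.94 TPM in B6 controls 2, 3 and 9, and at 7.20, 5.49 and 5.53 TPM in B6 CRS 12, 13 and 14. BALB/c libraries showed 0.678, 1.05 and 1.12 TPM in controls 5, 9 and 10, and 2.02, 1.07 and 1.10 TPM in CRS 12, 13 and 15. Every B6 library lay above every BALB/c library, and the highest BALB/c value came from the library with the high 18S share. The group means in controls were 6.88 ± 0.518 TPM (SD, n = 3) for B6 and 0.949 ± 0.238 TPM for BALB/c, a 7.25-fold higher level in B6. Under CRS the means were 6.07 ± 0.974 and 1.39 ± 0.538 TPM, 4.35-fold higher in B6. In log2(TPM + 1), on which changes of low genes look smaller than they are, BALB/c fell by 2.02 in controls (SE 0.18, limma adjusted p = 1.97e-05) and by 1.58 under CRS (SE 0.18, limma adjusted p = 0.000222). Without B6 control 2 and BALB/c CRS 12 these differences were -2.07 (limma adjusted p = 7.73e-05) and -1.75 (limma adjusted p = 0.000277).

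Ifit3 has a near-identical neighbour, Ifit3b (chr19:34607970-34613401, plus strand), whose longest transcript was 97.8% identical over 97.4% of the shorter of the pair. Reads common to both copies can be assigned to either, so the split between them is uncertain. The processing notes name a single build, GRCm38, which is a C57BL/6J sequence, so reads of BALB/c mice were quantified on the sequence of the other strain. How sequence differences between the strains affect the Ifit3 and Ifit3b values, and with them the size of the Ifit3 gap, was not tested. Ifit3b stood at 4.74, 3.85 and 2.55 TPM in B6 controls and at 1.97, 3.21 and 2.54 TPM in B6 CRS. In BALB/c it stood at 2.96, 2.68 and 1.96 TPM in controls and at 1.39, 1.66 and 1.91 TPM under CRS. The strains overlapped for Ifit3b in controls, unlike for Ifit3, and under CRS the lowest B6 value was just above the highest of BALB/c. The sum of both genes ran from 8.07 to 11.2 TPM in B6 and from 2.73 to 3.73 TPM in BALB/c, with no overlap. Its log2 difference was -1.37 in controls (SE 0.13, limma adjusted p = 2.72e-05) and -1.26 under CRS (SE 0.13, limma adjusted p = 6.73e-05). The strain difference thus held for the pair as a whole, at a smaller size than for Ifit3 alone. Ifit3 made up 57.2% to 78.5% of the sum in B6 libraries and 18.7% to 59.2% in BALB/c libraries. The upper end in BALB/c was again CRS 12, and the other BALB/c libraries ended at 39.2%.

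**Figure D2:**
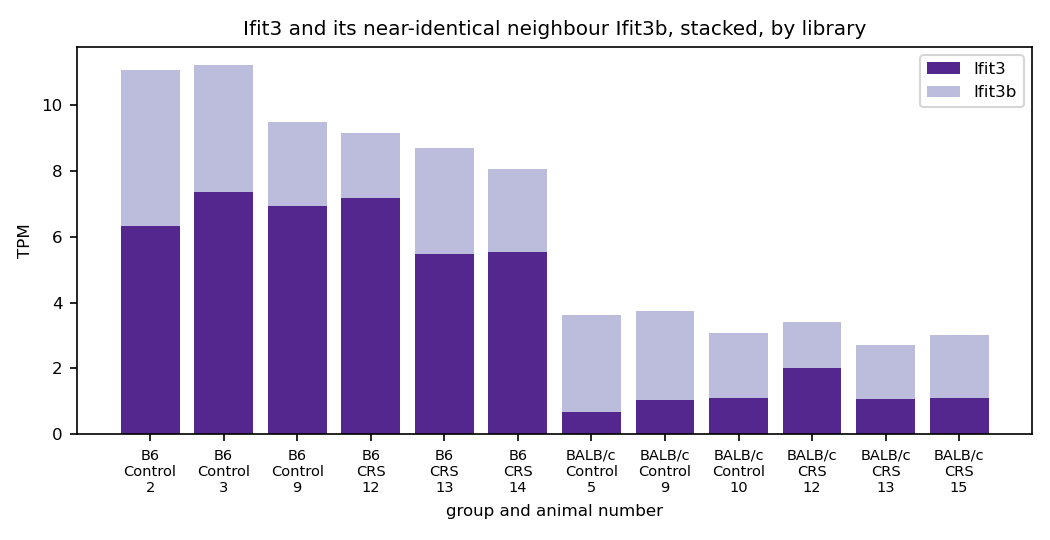
Stacked bars of Ifit3 and Ifit3b in TPM for each of the 12 libraries, labelled by group and number. The Ifit3b part overlaps between the strains among controls while the Ifit3 part is tall in all 6 B6 libraries and short in all 6 BALB/c libraries.

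Ifit1, the family member that binds viral RNA at its 5′ end (chr19:34640871-34650009, plus strand), was lower in BALB/c at a far lower level. Its values were 0.736, 0.936 and 0.975 TPM in B6 controls and 0.552, 1.23 and 0.772 TPM in B6 CRS. In BALB/c they were 0.361, 0.397 and 0.382 TPM in controls and 0.408, 0.477 and 0.307 TPM under CRS. All 6 B6 libraries lay above all 6 BALB/c libraries, with means of 0.867 ± 0.234 and 0.389 ± 0.0560 TPM (SD, n = 6), a 2.23-fold higher level in B6. Ifit1 did not enter the main test; in a fit of all 30737 genes above 0 in any library, its strain difference averaged over treatments was -0.42 (SE 0.09, limma adjusted p = 0.0202), and within controls or CRS alone it was not called.

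Oasl2, a protein related to the oligoadenylate synthetases (chr5:114896936-114912234, plus strand), stood at 1.73, 0.899 and 1.14 TPM in B6 controls and 1.26, 1.87 and 2.51 TPM in B6 CRS. For BALB/c the values were 1.06, 0.729 and 0.435 TPM in controls and 0.570, 1.37 and 0.879 TPM under CRS. The strains overlapped in both treatments. The differences of -0.37 in controls (limma adjusted p = 0.452) and -0.57 under CRS (limma adjusted p = 0.171) were not called, and without B6 control 2 or BALB/c control 10 the former was -0.23 or -0.24. The rows that were added up for Oasl2, apparently transcripts, divided differently in the strains, a feature singled out after the values were seen. Row 6 of the gene's 9 rows held 69.0% of Oasl2 TPM in B6, where it ran from 0.528 to 1.72 TPM and was above 0 in 6 of 6 libraries. In BALB/c that row held 17.9% of the gene's TPM and ran from 0 to 0.373 TPM, above 0 in 3 of 6 libraries. Row 1 overlapped between the strains, at 0.111 to 0.553 TPM in B6 and 0.168 to 0.690 TPM in BALB/c. The table names rows by gene only, so which transcript each row holds is not stated. How sequence differences between the strains affect the division over rows was not tested.

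The antiviral membrane proteins Bst2 and Ifitm3 were called lower in BALB/c once both treatments were averaged, and in neither treatment alone. Bst2, or tetherin, holds budding enveloped viruses at the cell surface (chr8:71534255-71537456, minus strand). It stood at 4.52, 6.16 and 5.22 TPM in B6 controls and at 4.16, 6.10 and 4.12 TPM in B6 CRS. In BALB/c it stood at 3.24, 3.21 and 3.17 TPM in controls and at 2.37, 2.26 and 3.92 TPM under CRS. No BALB/c library reached the lowest B6 library, although BALB/c CRS 15 came close to it. The means over both treatments were 5.05 ± 0.928 TPM in B6 and 3.03 ± 0.618 TPM in BALB/c (SD, n = 6), a 1.67-fold higher level in B6. The log2 difference was -0.57 in controls (SE 0.19, limma adjusted p = 0.124) and -0.60 under CRS (SE 0.19, limma adjusted p = 0.0805), neither called. Averaged over treatments it was -0.59 (SE 0.14, limma adjusted p = 0.0120), which was called. Without both libraries singled out above for ribosomal RNA or blood signal, the averaged difference was -0.59 and the call was weaker (limma adjusted p = 0.0337).

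Ifitm3 blocks the fusion of viruses with endosomal membranes (chr7:141009586-141010770, minus strand). It stood at 19.5, 26.8 and 14.7 TPM in B6 controls and 28.2, 28.9 and 23.4 TPM in B6 CRS. The BALB/c values were 11.2, 13.6 and 13.2 TPM in controls and 17.7, 17.1 and 20.1 TPM under CRS. Within each treatment the B6 libraries lay above the BALB/c libraries, but B6 controls 2 and 9 lay below the highest BALB/c CRS library. The log2 difference was -0.61 in controls (SE 0.18, limma adjusted p = 0.0835) and -0.53 under CRS (SE 0.18, limma adjusted p = 0.0987). Averaged over treatments it was -0.57 (SE 0.13, limma adjusted p = 0.0104) and was called. Leaving out the same libraries as for Bst2 gave -0.56, with a call just under the threshold (limma adjusted p = 0.0444).

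Ifi27, a small membrane protein found at mitochondria (chr12:103434211-103440239, plus strand), was the most abundant of the set on the TPM scale. It stood at 59.6, 52.2 and 56.0 TPM in B6 controls and 49.7, 48.9 and 53.5 TPM in B6 CRS. In BALB/c it stood at 38.1, 45.9 and 18.6 TPM in controls and 34.6, 33.7 and 39.1 TPM under CRS. The strains did not overlap, and BALB/c control 10 was far below the other BALB/c libraries. The log2 difference was -0.79 in controls (SE 0.24, limma adjusted p = 0.0936) and -0.49 under CRS (SE 0.24, limma adjusted p = 0.241). Averaged over treatments it was -0.64 (SE 0.17, limma adjusted p = 0.0226), but without BALB/c CRS 12 the limma adjusted p was 0.0524 and without both libraries that stood apart it was 0.0950. In the fit of all genes above 0, used above for Ifit1, Ifi27 was not called either (limma adjusted p = 0.0532). Leaving out BALB/c control 10 moved the difference in controls to -0.41, and leaving out BALB/c control 9 moved it to -1.04 (limma adjusted p = 0.0280). Ifi27 was spread over 9 rows, of which row 6 was the largest in each strain, with 37.2% of the gene's TPM in B6 and 46.6% in BALB/c. Row 8 was above 0 in 6 of 6 B6 libraries and in 1 of 6 BALB/c libraries, at no more than 2.77 TPM.

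**Figure D3:**
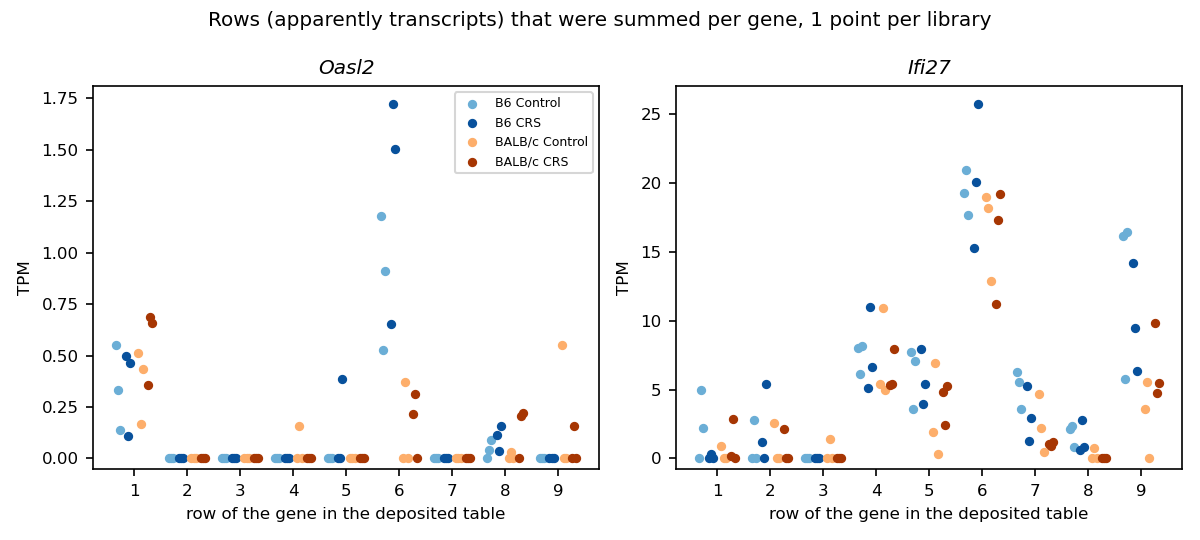
TPM of each of the 9 table rows named Oasl2 (left) and Ifi27 (right) on linear axes, 1 point per library and 1 colour per group. Row 6 of Oasl2 is above 0.5 TPM in every B6 library and below 0.4 TPM in every BALB/c library, whereas row 6 of Ifi27 overlaps between the strains.

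The ubiquitin-like pair showed no called strain difference. Isg15 is a ubiquitin-like protein that is attached to other proteins (chr4:156199424-156200818, minus strand). It stood at 1.34, 1.60 and 2.00 TPM in B6 controls and 3.09, 1.56 and 1.62 TPM in B6 CRS. Among BALB/c libraries it was at 1.32, 1.59 and 0.715 TPM in controls and 0.457, 1.24 and 0.707 TPM under CRS. The strains overlapped in controls and were apart under CRS, where the log2 difference was -0.77 (SE 0.25, limma adjusted p = 0.0807). In controls it was -0.28 (SE 0.25, limma adjusted p = 0.607), and without B6 control 9 or BALB/c control 10 it was -0.18 or -0.10. Usp18, which removes Isg15 from proteins and restrains signalling at the receptor (chr6:121245906-121270917, plus strand), stood at 0.356, 0.476 and 0.274 TPM in B6 controls and 0.824, 1.11 and 0.486 TPM in B6 CRS. In BALB/c it stood at 0.437, 0.331 and 0.344 TPM in controls and 0.321, 0.500 and 0.697 TPM under CRS. Usp18 overlapped between the strains in both treatments. It overlaps Gm44148 on the opposite strand, and whether strand was used in quantification is not given in the sources used here.

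Irf7, the transcription factor that amplifies type I interferon production, had the smallest ratio of the strain means over both treatments, 1.18. It stood at 1.06, 1.05 and 1.45 TPM in B6 controls and 0.874, 1.42 and 0.722 TPM in B6 CRS. BALB/c mice had 0.844, 0.617 and 0.844 TPM in controls and 0.974, 1.43 and 0.874 TPM under CRS. BALB/c controls lay below all B6 controls, and under CRS the strains overlapped widely. The log2 differences were -0.30 (limma adjusted p = 0.443) in controls and 0.07 (limma adjusted p = 0.873) under CRS, with 95% confidence intervals of -0.72 to 0.12 and -0.35 to 0.49. Irf7 (chr7:141262706-141266481, minus strand) was split over 10 rows with a value above 0 and overlaps Phrf1 on the opposite strand. How far either feature affects the certainty of its summed level was not tested.

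Set against all genes, the strain comparison in controls called 1 of the 7 tested genes, Ifit3, where 4.73% of all tested genes were called in either direction and 3.37% were called lower. All 7 had a log2 difference below 0, as did 67.7% of tested genes, and 5 of 7 had no overlap between the strains with BALB/c lower, against 18.7% of tested genes. Without Irf7 and Oasl2, for which the filter favoured this direction, 5 of 5 were below 0 and 4 of 5 did not overlap. These counts are a description and no support for a common direction. The median difference was -0.57 over the 7 and -0.10 over all tested genes; median-of-ratios scaling moved the latter by 0.11, to 0.00, and left Ifit3 as the single call. Under CRS the call was again Ifit3 alone, against 7.7% of tested genes called in either direction and 5.33% called lower. There, 6 of 7 differences were below 0 (58.7% of tested genes), and 5 of 7 genes did not overlap (20% of tested genes). Lower in BALB/c without overlap in both treatments were Ifit3, Ifi27, Bst2 and Ifitm3, 4 of 7, against 9.29% of tested genes. Averaged over treatments those 4 genes were called lower, and 3 of them, all but Ifitm3, had no overlap over 6 against 6 libraries, as had 6.94% of tested genes with BALB/c lower; here 18.4% of tested genes were called and 14.3% were called lower. Isg15 at -0.52 (limma adjusted p = 0.0581) and Oasl2 at -0.47 (limma adjusted p = 0.0758) missed the threshold, and Irf7 was at -0.12 (limma adjusted p = 0.594). These strain contrasts use the same libraries as the CRS contrasts that follow.

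**Figure D4:**
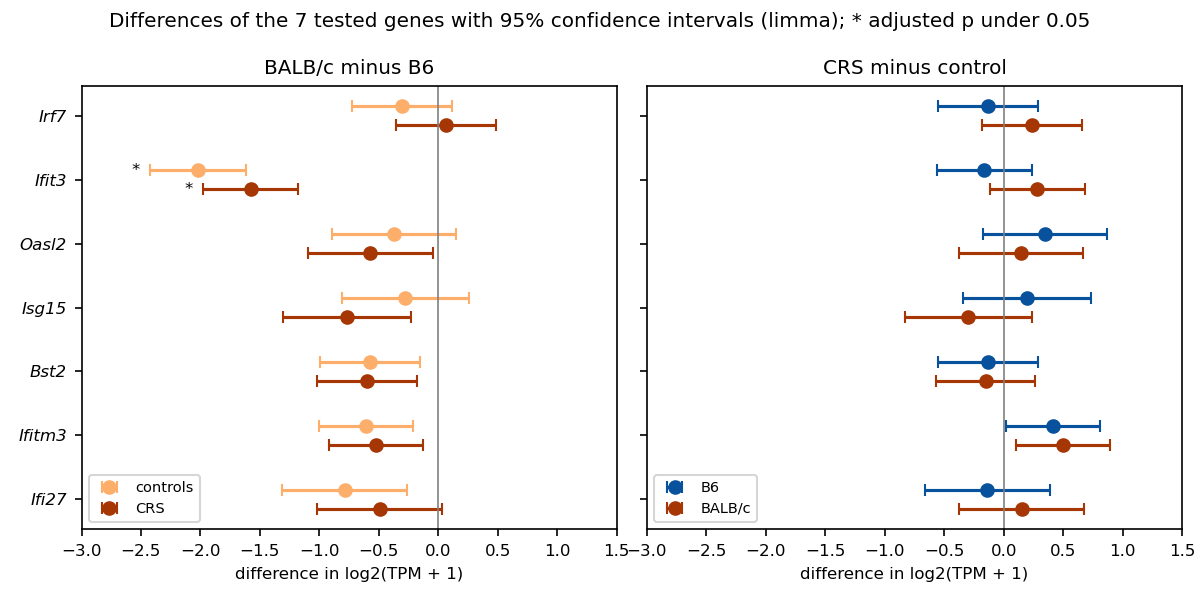
Differences in log2(TPM + 1) of the 7 tested genes with 95% confidence intervals from limma; the left panel shows BALB/c minus B6 in controls and under CRS, the right panel CRS minus control in each strain. Only the 2 Ifit3 intervals on the left carry an asterisk (adjusted p under 0.05), and in the right panel only the Ifitm3 intervals leave out 0.

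The order of the 4 groups was the same for Ifit1, Ifit3 and Ifi27: B6 control, B6 CRS, BALB/c CRS, BALB/c control. In these 3 genes the neighbours of the same strain overlapped and the step from B6 to BALB/c did not. Bst2 had the same step between strains with BALB/c control above BALB/c CRS. Ifitm3 and Oasl2 ran from B6 CRS through B6 control and BALB/c CRS to BALB/c control; in Ifitm3 only BALB/c control was apart from its neighbour, and in Oasl2 no neighbours were apart. All neighbouring groups overlapped for Isg15, Irf7 and Usp18.

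Restraint was followed by no called change in any of the 9 genes. In B6, limma called 0 of 7 tested genes, with 1 at an unadjusted p under 0.05, where it called 0% of all tested genes and 4.82% had an unadjusted p under 0.05. In BALB/c it called 0 of 7, again with 1 at an unadjusted p under 0.05, where 0.00609% of all tested genes were called and 3.03% had an unadjusted p under 0.05. The gene in question was Ifitm3 in both strains. Its mean was 20.3 ± 6.08 TPM in B6 controls and 26.9 ± 2.98 TPM in B6 CRS (SD, n = 3), and 12.6 ± 1.30 and 18.3 ± 1.60 TPM in BALB/c. The control and CRS libraries overlapped in B6, through B6 control 3 at 26.8 TPM, and were apart in BALB/c. The log2 difference was 0.42 in B6 (95% confidence interval 0.02 to 0.81) and 0.50 in BALB/c (0.11 to 0.90), each with a limma adjusted p of 1. Averaged over strains it was 0.46 (SE 0.13, limma adjusted p = 0.946), and 0.00609% of all tested genes were called in that comparison.

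The second lowest p in B6 was that of Oasl2, with a log2 difference of 0.35 (95% confidence interval -0.17 to 0.87, limma adjusted p = 1). In BALB/c it was Ifit3, at 0.28 (-0.12 to 0.68, limma adjusted p = 1), and at 0.10 without BALB/c CRS 12. For the sum of Ifit3 and Ifit3b the sign in BALB/c turned, to -0.15. Control and CRS libraries were apart in BALB/c for Ifitm3 and Irf7, both higher under CRS, 2 of 7 tested genes against 5.36% of all tested genes. In B6 none of the 7 was apart. Usp18, which was not among them, was apart in B6: all 3 CRS libraries exceeded all 3 controls, 2.18-fold on the means of 0.369 and 0.805 TPM. In the fit of all genes above 0 its difference was 0.39 (SE 0.14, limma adjusted p = 0.880), and groups were apart in this direction for 4.63% of tested genes. Intervals of the other tested genes reached from -0.66 to 0.73 in B6 and from -0.83 to 0.68 in BALB/c, so changes of that size on the log2 scale could not be told from none.

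The difference between the CRS effects of the strains, tested as an interaction, was called by limma for 0 of 7 genes and for 0% of all tested genes, with 0 of the 7 and 2.7% of all at an unadjusted p under 0.05. Ifit3 had the lowest p, at 0.44 (95% confidence interval -0.12 to 1.01, limma adjusted p = 1.00), and 0.32 without both libraries that stood apart. Isg15 followed at -0.49 (-1.25 to 0.27, limma adjusted p = 1.00), with higher mean TPM under CRS in B6 and lower in BALB/c.

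Upstream of these genes the lists gave few calls within a treatment and more when both treatments were averaged, always with BALB/c lower. Over all tested genes, 4.73% were called in controls, 7.7% under CRS and 18.4% averaged over treatments. Those called lower were 3.37%, 5.33% and 14.3%, so the rise and the main direction were also those of all genes. The genes named from the averaged comparison were chosen after their values were seen. The 11 listed ligands, among them Ifnb1, the first interferon made on viral sensing, and Ifng, the type II interferon, were at 0 in every library for 7 of them. Ifnb1 reached the highest value of the list, 0.322 TPM in 1 library, and none was tested. Of 6 receptor genes 5 were tested and 0 were called in controls or under CRS; averaged over treatments Ifngr1, a chain of the type II interferon receptor, was lower at -0.31 (limma adjusted p = 0.0162). Ifnar1 differed by 0.16 (limma adjusted p = 0.518) and Ifnar2 by -0.04 (limma adjusted p = 0.898) in controls. Of the 6 signalling genes 0 were called, also on average. Among them, Stat2 was at 0.04 (limma adjusted p = 0.918) and Irf9 at -0.34 (limma adjusted p = 0.224) in controls. The regulatory factors other than Irf7 gave 1 call of 5 tested in controls and 2 under CRS. Irf3, which starts interferon transcription after sensing, was called lower, from 22.5 ± 4.06 TPM in B6 to 13.1 ± 1.94 TPM in BALB/c in controls (SD, n = 3; log2 difference -0.73, limma adjusted p = 0.0120), and was at -0.68 under CRS (limma adjusted p = 0.0160). Irf8, a factor of microglia and other myeloid cells, was lower under CRS at -0.60 (limma adjusted p = 0.0455) and stood at -0.15 in controls (limma adjusted p = 0.684). Irf3 and Irf8 were also the 2 called on average, at -0.71 and -0.37. Among 11 tested sensors and adaptors, Myd88, the adaptor of most Toll-like receptors, was lower in BALB/c controls at -0.51 (limma adjusted p = 0.0344) and 0 were called under CRS. On average 2 were lower, Myd88 at -0.39 (limma adjusted p = 0.00993) and the RNA sensor gene Rigi at -0.44 (limma adjusted p = 0.0471). Of 11 tested negative regulators 0 were called in either treatment alone, and on average 2 were lower, the ribonuclease H2 subunit genes Rnaseh2b at -0.67 (limma adjusted p = 0.00920) and Rnaseh2c at -0.42 (limma adjusted p = 0.0441).

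Other interferon-stimulated genes were called in both directions between the strains. Of all tested genes, 3.37% were called lower in BALB/c in controls, 5.33% under CRS and 14.3% averaged over treatments. In either direction the shares were 4.73%, 7.7% and 18.4%. Of 67 listed, 40 were tested, and in controls 2 were called lower in BALB/c, 2 higher and 36 not, with a median difference of -0.19. The lower ones were Trim12a and Trim34a, TRIM proteins of antiviral defence, at -2.07 (limma adjusted p = 0.00170) and -0.86 (limma adjusted p = 0.0340). In controls Trim12a averaged 3.65 ± 2.15 TPM for B6 and 0.0262 ± 0.0303 TPM for BALB/c (SD, n = 3), and it was listed at 0 in all BALB/c CRS libraries. The higher ones were Stat3, a transcription factor of cytokine signalling, at 0.85 (limma adjusted p = 0.00153), and Tor3a, an interferon-induced ATPase, at 0.73 (limma adjusted p = 0.0392). Under CRS 4 were called lower, 1 higher and 35 not, with a median of -0.08. Those lower were Trim12a at -1.83, Trim34a at -0.99, Phf11d at -0.88 and Slfn5 at -0.75, with limma adjusted p from 0.00433 to 0.0481, and the higher one was Stat3 at 0.73 (limma adjusted p = 0.00456). Slfn5 is named beyond the fixed number of genes per list, after its value was seen. Trim12a, Trim34a and Phf11d reached at most 0.0594, 0.426 and 0.597 TPM in BALB/c and passed the filter only with B6 libraries. For them a lower level in BALB/c was partly fixed by the filter. Averaged over treatments 8 were lower (Ifit2, Xaf1, Trim12a, Trim34a, Lgals3bp, Phf11d, Pnpt1 and Slfn5) and 3 higher (Herc6, Tor3a and Stat3), with a median of -0.09. Ifit2, a further gene of the Ifit family, was at -0.42 (limma adjusted p = 0.0104) in that comparison. The interferon-inducible GTPases, which act against intracellular pathogens, had 8 tested members. All 8 had a difference below 0 in controls and under CRS, as had 67.7% and 58.7% of all tested genes. None was called in controls, and Igtp at -0.71, Irgm2 at -0.70 and Gbp2 at -0.63 were called lower under CRS (limma adjusted p = 0.0262, 0.0324 and 0.0280). On average these 3 and Gbp5, at -0.41 (limma adjusted p = 0.0493), were lower. That made 3 of 8 called lower under CRS and 4 of 8 on average, against 5.33% and 14.3% of all tested genes. Gbp2, Gbp5, Gbp9 and Irgm2 passed the filter only with their B6 libraries, so their lower level in BALB/c was partly fixed by it. GTPase genes below the filter went both ways, such as Gbp2b, at 0 in every B6 library, and Gvin1, at 0 in every BALB/c library. Of the PYHIN family, which holds DNA sensors, only Aim2 passed the filter, and it was not called in either treatment. No gene of these lists was called in the CRS contrasts or the interaction.

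**Figure D5:**
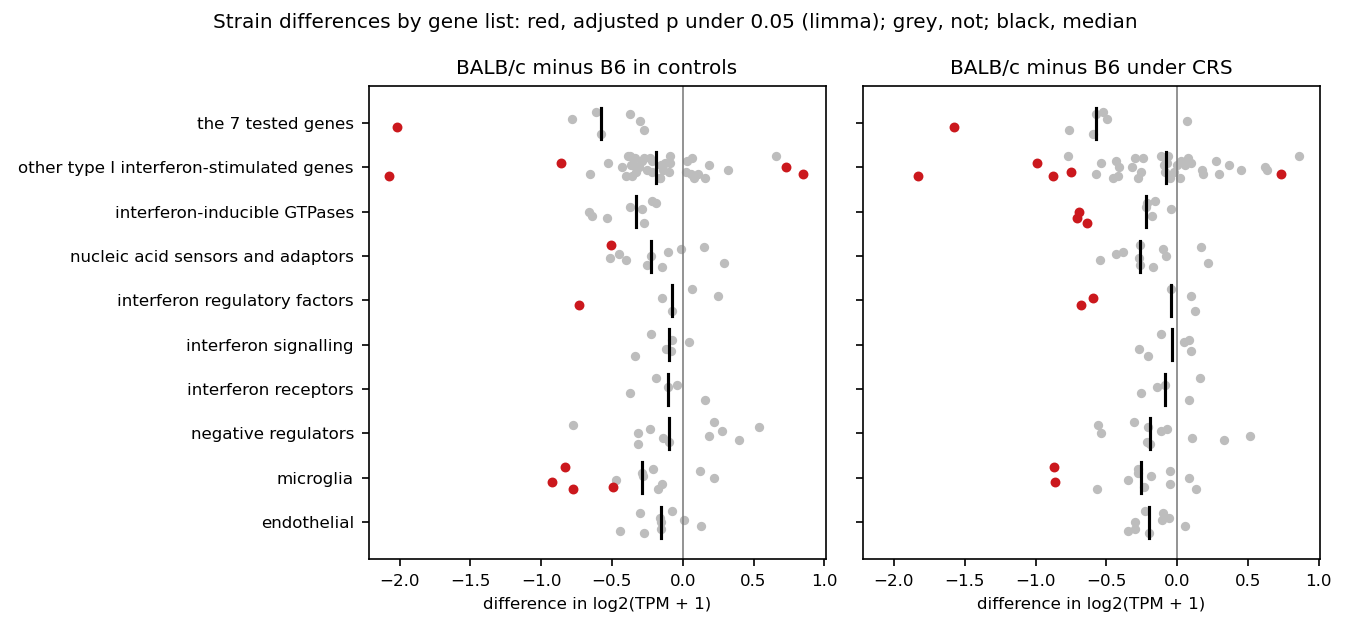
Strain differences (BALB/c minus B6, log2(TPM + 1)) of single genes by list, in controls and under CRS; red points have an adjusted p under 0.05 in limma, grey points do not, and black lines are list medians. The median of the 7 tested genes is -0.57 in both panels, and receptors and signalling genes have no red points.

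Markers of several cell types differed between the strains as well. The summed TPM of 12 microglial markers was 446 to 544 in B6 controls, 424 to 488 in B6 CRS, 377 to 390 in BALB/c controls and 358 to 372 in BALB/c CRS, so the strains did not overlap. In controls 4 of 12 were called lower (C1qb, C1qc, Tyrobp and Siglech), and under CRS 2 (C1qb and C1qc). Of all tested genes 3.37% were called lower in controls and 5.33% under CRS. C1qb differed by -0.92 in controls and C1qc by -0.83. Of the 9 endothelial markers 0 were called in either treatment alone, and on average Tie1 was lower at -0.40 (limma adjusted p = 0.0391). Their sums in controls were 134 to 163 TPM for B6 and 135 to 141 TPM for BALB/c and overlapped; under CRS they were 140.0 to 149.5 TPM and 123.3 to 132.6 TPM and did not. Astrocyte markers summed to 1435 to 1550 TPM in B6 and 1125 to 1191 TPM in BALB/c among controls, with 2 of 7 called lower. Myelin markers in controls summed to 2568 to 9850 TPM for B6 and 485 to 3129 TPM for BALB/c, and striatal neuron markers to 232 to 2961 and 135 to 417 TPM. Of the striatal list 8 of 9 were called lower in BALB/c under CRS. Averaged over treatments, 8 of 8 myelin markers (median -2.25) and 9 of 9 striatal markers (median -2.26) were called lower, against 14.3% of tested genes. In the same comparison 7 of 12 microglial and 3 of 7 astrocyte markers were called lower. Of 9 cortical excitatory neuron markers, 0 had a difference below 0 and 3 were called higher in BALB/c. The leukocyte list was low, at 1.75 to 24.0 TPM among B6 and 5.60 to 8.76 TPM among BALB/c controls, with the T cell marker Cd3e at 0 in every library. Meningeal fibroblast markers, with 0 of 7 called for CRS in BALB/c, summed to 11.4 to 21.2 TPM in BALB/c controls and 30.1 to 42.0 TPM in BALB/c CRS. In B6 they summed to 28.8 to 63.6 TPM in controls and 36.5 to 48.1 TPM under CRS, and overlapped. The part of these cell types in the values of the interferon-stimulated genes was not tested. A difference between the strains in the tissue taken in by the punches was not tested either. In bulk tissue fewer cells of a type and less RNA per cell cannot be told apart.

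The 7 tested genes were compared for how they varied from library to library. After group means were subtracted, the correlation of a gene with the mean of the other tested genes over the 12 libraries ran from -0.59 for Ifit3 to 0.30 for Ifi27. The tested genes outside the set whose deviations correlated best with the mean deviation of all 7, among 16416 compared, were Zdhhc9 (r = 0.96), Gm4221 (0.94), Casp8ap2 (0.93), Psma6 (0.93) and BC004004 (0.92). These are descriptions over 12 libraries that share the scaling to a fixed total, and the highest of so many correlations is high by selection.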

How the data were processed

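RNA from 12 punches was made into stranded poly(A) libraries and read as paired 150 bp reads to about 6 Gb each, per the labels' protocols. Reads were trimmed with cutadapt 2.9 and quantified with Salmon on GRCm38, per the submitters' processing notes. The authors deposited TPM in 1 table of 147902 rows, apparently transcripts, named by gene; each of the 12 columns summed to 1000000, which identified the unit. TPM keeps no depth, so counting error is unknown and precision rests on the spread between libraries.

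TPM was summed per gene name. The planned test for normalized values, limma 3.58.1 in R 4.3.3 (lmFit, contrasts.fit, eBayes with trend), was run on log2(TPM + 1) with 4 group means and 8 residual degrees of freedom, on genes of at least 1 TPM in at least 3 libraries; Benjamini-Hochberg adjustment covered all 16423 genes, and the call threshold was 0.05. The code was tested on simulated data. Near-identical transcripts were sought with blastn 2.17.0 (at least 95% identity over 80% of the shorter) among GENCODE M21 transcripts, which also gave gene positions. The genes and the lists were chosen with earlier results of these data known. Named were all 9 genes with every library, up to 3 called genes per list and direction in the strain comparisons, the 2 of lowest p in CRS comparisons without a call, and the 5 whose deviations from group means followed the mean of the 7 tested genes best; rows, Slfn5 and markers were chosen after their values were seen. Alternatives were the pseudocount (0.1 or 5), the filter (none, or a mean of 5 TPM), 2 other scalings, only the compared libraries, a replicate block, sums with near-identical genes, and leaving out each library. The single values of 1 listed gene are not reported here. No unassigned sample or column was left out.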

Additional observations from a re-analysis of the deposited data

How the results depend on the processing

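Of 851 recomputed differences of single genes, 809 kept their direction and side of the threshold, 33 turned sign, 6 gained a call and 3 lost it; none that turned had been called. Of 127 counts of called genes, 120 stayed within 1.5 times or at 0. The 7 that moved all lay in the strain comparisons, while the counts for CRS and the interaction were 0 throughout. In controls and under CRS, Ifit3 was called under every alternative that tested it; a mean of at least 5 TPM left only Ifi27 and Ifitm3 in the test and 0 calls in each, and 2 calls in the averaged strain difference. Under CRS, the libraries compared alone gave 3 calls (Ifi27, Ifit3, Ifitm3). With no filter on low values the averaged strain difference had 4 calls, with Ifit1 in and Ifi27 out. Leaving out 1 library gave 1 to 2 calls in controls (2 without B6 control 9, adding Ifitm3, or without BALB/c control 9, adding Ifi27), 1 to 2 under CRS (Bst2 was added without BALB/c CRS 15 and, among libraries outside that comparison, Ifitm3 without B6 control 9 and Ifi27 without BALB/c control 10) and 3 to 5 for the averaged strain difference (Ifi27 lost without BALB/c CRS 12, Isg15 added without BALB/c CRS 13). The cause of these changes was not tested beyond the smaller sets of genes and libraries. Library numbers shared between strains (9, 12 and 13) name different mice, and same-numbered libraries did not deviate together (r = -0.24, -0.03 and -0.04); with the replicate block, calls stayed at 1 in controls, 1 under CRS, 4 averaged over treatments and 0 in the other comparisons, and uncalled CRS differences turned for Ifi27 in B6 (0.0919) and, averaged over strains, for Ifit3 (-0.0535) and Irf7 (-0.12). Summed with Ifit3b, the CRS difference of Ifit3 was -0.15 in BALB/c and -0.21 averaged. With a pseudocount of 5, the averaged CRS differences of Ifit3 and Ifi27 were -0.00132 and -0.000701, and the Bst2 interaction was 0.00601. Median-of-ratios scaling gave -0.0200 for Ifi27 averaged over strains. Without both libraries that stood apart, chosen after seeing the data, Ifit3 was -0.0547 averaged over strains and the Bst2 interaction 0.15. Leaving out 1 library, sign turns lay within -0.0456 to 0.212 for Irf7 between strains under CRS. They lay within -0.0258 to 0.312 for Isg15 in B6, -0.22 to 0.41 for Ifi27 and -0.0054 to 0.29 for Oasl2 in BALB/c, -0.21 to 0.13, -0.13 to 0.28 and -0.0835 to 0.546 for the interactions of Bst2, Ifitm3 and Ifi27, and -0.18 to 0.13, -0.0204 to 0.103, -0.161 to 0.0199 and -0.0294 to 0.107 for the averaged CRS differences of Ifi27, Irf7, Isg15 and Ifit3.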
